A study of Mus musculus with 11 samples.

Results

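The genes of the TGF-beta, BMP and activin signalling family were followed in mouse keratoacanthoma and normal skin. Members were the genes whose single annotated symbol begins with Bmp, Gdf, Smad, Tgfbr, Inhb or Acvr, with Tgfb1, Tgfb2, Tgfb3, Inha, Fst, Fstl3, Nog, Grem1, Chrd and Eng added by name. This rule, which uses no measured value, found 57 of the 20352 genes on the arrays. They comprised 27 ligands (3 TGF-betas, 5 activin and inhibin subunits, 10 BMPs and 9 GDFs), 13 receptors, 8 SMADs, 6 secreted inhibitors and 3 genes that carry a family symbol without being a ligand, receptor or SMAD. Together they were read by 516 probesets, with a median of 9 per member and a range from 1 to 23.

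Ligands of this family are secreted dimers that bring together type I and type II receptor kinases at the cell surface. TGF-betas and activins pass their signal mainly through SMAD2 and SMAD3, BMPs and some GDFs mainly through SMAD1, SMAD5 and SMAD9. Both branches use SMAD4 to act on genes in the nucleus. In skin, TGF-beta restrains keratinocyte division, activin is made during wound repair, and BMPs with their antagonists time the hair cycle and keratinocyte differentiation.

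The study hybridised 11 tissue pieces, each to its own array: 5 keratoacanthomas, which are squamous skin tumours built of keratinocytes, and 6 normal skins. All 5 keratoacanthomas came from mice carrying both the K14-Cre and the Zmiz1 transgene. Of the normal skins, 2 came from mice with both transgenes (skins 1 and 2), 2 from mice with K14-Cre only (skins 3 and 4) and 2 from mice with Zmiz1 only (skins 5 and 6). The keratin 14 promoter drives Cre in the basal layer of stratified epithelia, whereas the pieces are whole tissue. Ages, doses and whether pieces came from separate animals are not given in the sources used here, so that p-values measure the spread between these pieces.

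Gene values are log2 array signals, the median over a gene's probesets, and differences are keratoacanthoma minus normal skin on that scale. A change was called at a Benjamini-Hochberg adjusted p below 0.05 from limma over all 20352 genes. Signals of different genes on an array are not compared with each other. Zmiz1, the gene of the transgene, read 8.03 to 8.27 in the keratoacanthomas and 7.15 to 7.91 in the normal skins, a difference of 0.65 (adjusted p = 0.0045, limma).

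The tissues also differed in markers of other cell types. The mean of 12 skeletal muscle markers was 5.74 to 7.48 in the keratoacanthomas and 10.6 to 11.8 in the normal skins, and all 12 were lower. The mean of 8 fat cell markers was 5.98 to 7.14 against 7.80 to 9.07 (7 lower), and that of 10 fibroblast markers 7.44 to 8.31 against 8.59 to 9.28 (5 lower). Dividing cell markers averaged 7.55 to 7.78 against 5.42 to 7.13 (9 of 9 higher), and keratinocyte markers, which check the labelled tissue, 10.4 to 10.5 against 9.33 to 10 (4 of 9 higher). Of the macrophage markers 2 of 9 were lower, of the T cell markers 1 of 7, and of the pericyte and smooth muscle markers 3 of 8. Over all genes 10.8% were lower, and the median differences of these lists were -0.39, -0.01 and 0.07. Of the neutrophil markers 2 of 7 were higher, beside 14.5% of all genes. Hair keratins stood apart in keratoacanthoma 4 (mean 8.76) and in normal skins 1 and 3 (9.92 and 9.59), the other 8 arrays reading 5.79 to 6.26. Calls lost and signs turned without these 3 arrays are given with that value for the members named below. Differences that kept their call could also change in size. In whole tissue, fewer cells of a type and less RNA per cell cannot be told apart.

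Between keratoacanthoma and normal skin, 16 of the 57 members changed (28.1%): 9 were higher and 7 lower. Over all genes 25.3% were called, 14.5% higher and 10.8% lower, against 15.8% and 12.3% of the members, so that the family as a whole lay near the background. The members' median difference was 0.03, beside -0.04 for all genes. The members that moved most were Inhba (3.45-fold higher), Acvr1c (2.48-fold lower), Bmp4 (2.12-fold lower) and Fst (2.09-fold higher), the 4 called members that differed at least 2-fold; Acvr1c fell short of 2-fold without dim probesets (-0.68 on the log2 scale). In 9 members (15.8%) the groups did not overlap, against 16.0% of all genes; 6 of them lay wholly above the normal skins (9.66% of all genes) and 3 wholly below (6.31%). Without the 3 arrays high in hair keratins, 7 members were higher and 6 lower, against 13% and 10% of all genes. Leaving out keratoacanthoma 5 reduced the lower members from 7 to 4, with 7.92% of all genes lower. The calls lost without the 3 hair keratin arrays were Acvr2a (0.24, adjusted p = 0.28), Bmp5 (-0.30, 0.21) and Tgfb2 (0.43, 0.075, limma). Centring each array gave 10 higher and 5 lower members, against 17.1% and 8.24% of all genes.

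**Figure D1:**
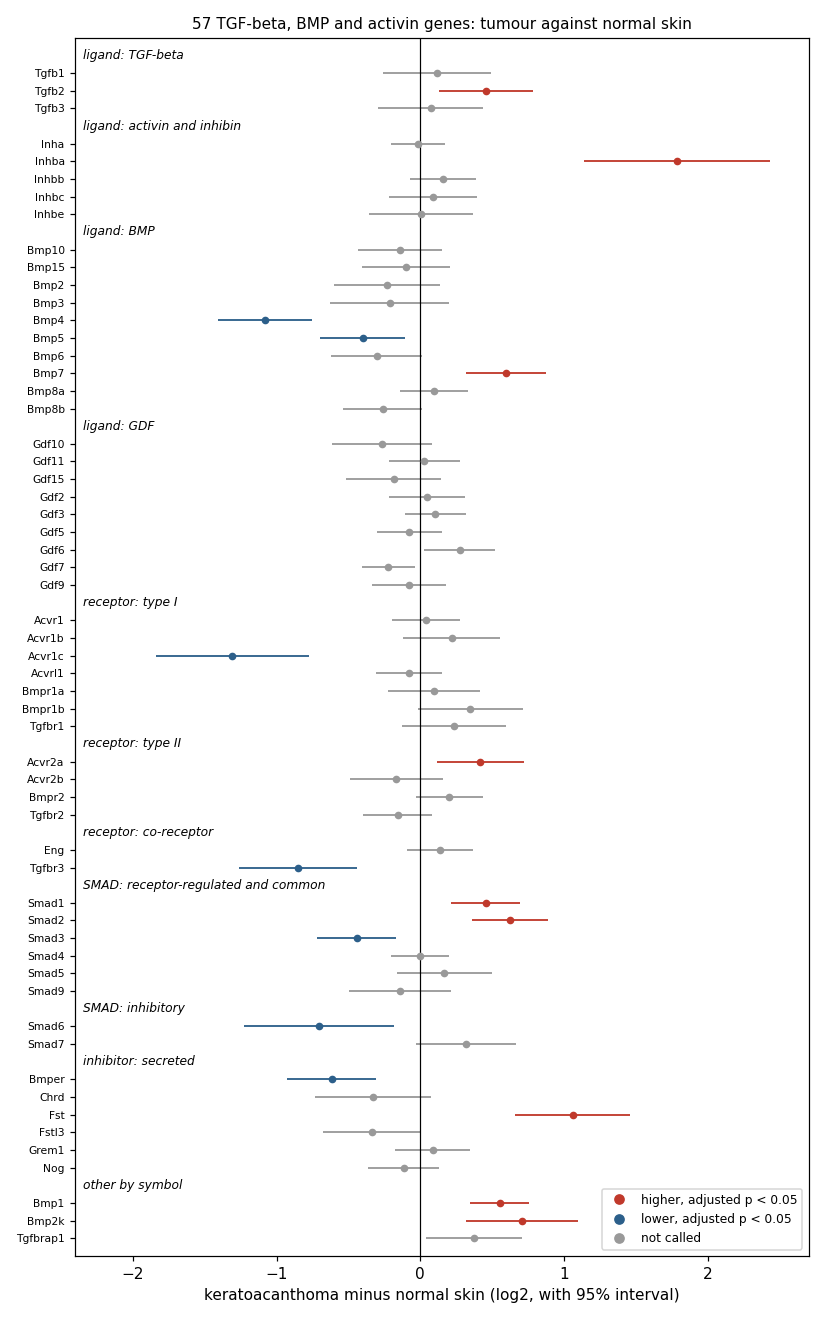
Difference between keratoacanthoma (5 arrays) and normal skin (6 arrays) on the log2 scale for each of the 57 members, with 95% intervals from limma, ordered by role and coloured by call. Inhba lies farthest to the right at 1.79 and Acvr1c farthest to the left at -1.31, and 41 members were not called.

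Promoter sequence is shown for the members changed at least 2-fold that the RefSeq promoter table (GRCm38.p6) holds, as the 250 bases before the first listed start, read 5′ to 3′ on the gene's strand. The windows are chr13:16011601-16011850 (+) for Inhba, chr14:46390670-46390919 (-) for Bmp4 and chr2:58357759-58358008 (-) for Acvr1c. Capitals mark the letters TATAAA, searched on both strands.
Inhba: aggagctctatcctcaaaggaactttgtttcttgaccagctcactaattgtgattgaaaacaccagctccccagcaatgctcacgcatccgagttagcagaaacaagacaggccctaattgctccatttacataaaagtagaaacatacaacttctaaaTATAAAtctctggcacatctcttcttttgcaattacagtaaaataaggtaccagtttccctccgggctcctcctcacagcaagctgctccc
Bmp4: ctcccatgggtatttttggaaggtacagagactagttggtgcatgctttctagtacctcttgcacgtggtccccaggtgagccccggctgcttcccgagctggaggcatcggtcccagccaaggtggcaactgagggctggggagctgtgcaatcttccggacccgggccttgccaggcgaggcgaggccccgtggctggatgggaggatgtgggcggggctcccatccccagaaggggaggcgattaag
Acvr1c: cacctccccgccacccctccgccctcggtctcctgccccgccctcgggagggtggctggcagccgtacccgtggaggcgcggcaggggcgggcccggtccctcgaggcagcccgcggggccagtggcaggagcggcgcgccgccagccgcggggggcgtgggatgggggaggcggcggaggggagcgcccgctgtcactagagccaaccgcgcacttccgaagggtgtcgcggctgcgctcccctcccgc
The Inhba window had a GC content of 43.2% and held TATAAA, while those of Bmp4 (63.2%) and Acvr1c (79.6%) did not. TATAAA occurred in 14.3% of the 49 windows found for 41 members and in 12.4% of all 32851 windows of the same length. Of the letters bound by SMADs, CAGAC was in 44.9% of member windows and 42.2% of all, and GGCGCC in 18.4% and 9.59%. GTCTAGAC and the AP-1 letters TGACTCA were in no member window, and in 0.167% and 4.46% of all windows. None of these 4 was in the windows printed above. These are matches of letters on both strands, not measured sites.

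Among the TGF-beta and activin ligands, Inhba and Tgfb2 rose. Inhba encodes the beta A chain of activin A, which keratinocytes make after wounding. Inhba read 8.47, 7.77, 7.96, 7.65 and 8.54 in keratoacanthomas 1 to 5, and 5.48 at the lowest, 6.16 at the median and 7.45 at the highest in the normal skins. Every keratoacanthoma lay above every normal skin, with normal skins 1 (7.45) and 3 (6.64) nearest to the tumours. The group means were 8.08 ± 0.41 (SD, n = 5) and 6.29 ± 0.68 (SD, n = 6), a difference of 1.79 (SE 0.30, 95% interval 1.14 to 2.43, limma adjusted p = 0.00083). Those same skins had the highest dividing cell means among the normal skins, 7.13 and 6.54 against 5.42 to 5.69 in the others; the part of dividing cells in the result was not tested. Of the 4 Inhba probesets, 3 were higher and their differences ran from 0.08 to 2.49. The gene difference was 2.27 without the 3 arrays high in hair keratins, which include normal skins 1 and 3.

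Tgfb2, 1 of the 3 TGF-beta isoforms, read 6.59, 6.81, 7.10, 6.63 and 7.05 in the keratoacanthomas, and 5.92, 6.43 and 6.75 at the lowest, median and highest normal skin. The groups overlapped through keratoacanthomas 1 and 4 and normal skin 2. The difference was 0.45 (SE 0.15, limma adjusted p = 0.042), with 1 of 13 probesets called higher. This call was lost in 11 of 23 alternative settings. Leaving out any of keratoacanthomas 2, 3 and 5 or of normal skins 1, 4, 5 and 6 ended it (difference 0.36 to 0.47, limma adjusted p 0.058 to 0.11).

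The other TGF-beta and activin ligands were not called. Tgfb1, the founding isoform, read 6.13, 6.67, 6.38, 6.34 and 6.12 in the tumours and 5.73, 6.18 and 6.84 at the lowest, median and highest normal skin. The tumours lay inside the range of the skins, with a difference of 0.11 (95% interval -0.26 to 0.49, limma adjusted p = 0.68). Its sign turned to -0.21 when the double transgenic skins alone were the reference. Tgfb3 gave 6.53, 6.28, 7.05, 6.60 and 6.65 against 6.20, 6.43 and 6.98, and only keratoacanthoma 3 passed the highest skin (difference 0.07, 95% interval -0.29 to 0.44, adjusted p = 0.80). The sign of this small difference depended on keratoacanthoma 3, without which it was -0.035, and it was -0.058 without the 3 arrays high in hair keratins.

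Inhbb, the beta B chain of activin B, read 6.88, 6.73, 6.67, 6.65 and 6.81 in the tumours and 6.32, 6.61 and 6.83 at the lowest, median and highest normal skin. The groups overlapped, with a mean difference of 0.16 (limma adjusted p = 0.32, 95% interval -0.074 to 0.39). Inha, the inhibin alpha chain, and the beta chains Inhbc and Inhbe differed by -0.02, 0.09 and 0.01. The Inhbe means of 4.01 and 4.00 lay below the 25th percentile of probeset signals (4.96), where a change may go unseen.

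Of the 10 BMPs, Bmp4 and Bmp5 were lower and Bmp7 was higher. Bmp4, a ligand made in the dermis and around hair follicles, read 6.21, 5.88, 6.14, 6.75 and 6.13 in the tumours, and 7.02, 7.32 and 7.59 at the lowest, median and highest normal skin. The groups did not overlap, and keratoacanthoma 4 was the tumour nearest to skin. The means were 6.22 ± 0.32 (SD, n = 5) and 7.30 ± 0.21 (SD, n = 6), a difference of -1.08 (SE 0.15, 95% interval -1.41 to -0.75, limma adjusted p = 0.00026). All 5 Bmp4 probesets had a negative difference, from -1.95 to -0.51, and 4 were called. The fibroblast marker mean was also lower in every tumour than in every normal skin, and its part in the fall of Bmp4 was not tested.

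Bmp7, a ligand of epithelial tissues that can pair with BMP4, ran the other way. It read 6.79, 6.54, 6.79, 6.70 and 6.98 in the tumours, and 5.90, 6.15 and 6.44 at the lowest, median and highest normal skin. All tumours were above all skins, with keratoacanthoma 2 and normal skin 3 lying closest. The means were 6.76 ± 0.16 (SD, n = 5) and 6.16 ± 0.24 (SD, n = 6), a difference of 0.60 (SE 0.13, limma adjusted p = 0.0043), and 4 of its 8 probesets were higher.

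Bmp5 was lower by a smaller amount. It read 4.89, 4.62, 4.52, 4.71 and 4.88 in the tumours and 4.80, 5.16 and 5.47 at the lowest, median and highest normal skin, so that the groups overlapped. The difference was -0.40 (SE 0.14, limma adjusted p = 0.045), none of its 9 probesets was called, and the tumour mean of 4.72 was below the 25th percentile of signals. The median difference of these probesets was -0.08. The call was lost in 17 of 22 alternative settings, and as a mean over probesets the difference was -0.26 (limma adjusted p = 0.078). Leaving out any of keratoacanthomas 2 to 5 or of normal skins 1 to 4 ended it (difference -0.44 to -0.33, limma adjusted p 0.056 to 0.11).

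The 7 remaining BMPs differed by -0.30 (Bmp6) to 0.10 (Bmp8a), with a smallest limma adjusted p of 0.15. Bmp2, which like BMP4 drives keratinocyte and hair shaft differentiation, read 5.76, 6.06, 5.31, 5.57 and 5.46 in the tumours. Its normal skins read 5.55 at the lowest, 5.85 at the median and 6.37 at the highest, which overlaps the tumours (difference -0.23, adjusted p = 0.35, limma). Without dim probesets this became a call (-0.49, adjusted p = 0.047). Bmp10 and Bmp15 lay below the 25th percentile in both groups, and Bmp8a and Bmp8b are close in sequence, so that their values are uncertain.

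None of the 9 GDFs was called. Their differences ran from -0.27 (Gdf10) to 0.27 (Gdf6), and their 95% intervals together spanned -0.61 to 0.52. Gdf7 came nearest to a call, at 6.14 to 6.40 in the tumours and 6.47 to 6.58 in the skins; these groups did not overlap, but the difference was -0.22 (limma adjusted p = 0.078). Gdf15, a ligand induced by cell stress, read 5.59, 5.59, 5.84, 5.17 and 5.45 in the tumours and 5.37, 5.79 and 6.01 at the lowest, median and highest normal skin. Its groups overlapped (difference -0.19, 95% interval -0.51 to 0.14, adjusted p = 0.41).

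**Figure D2:**
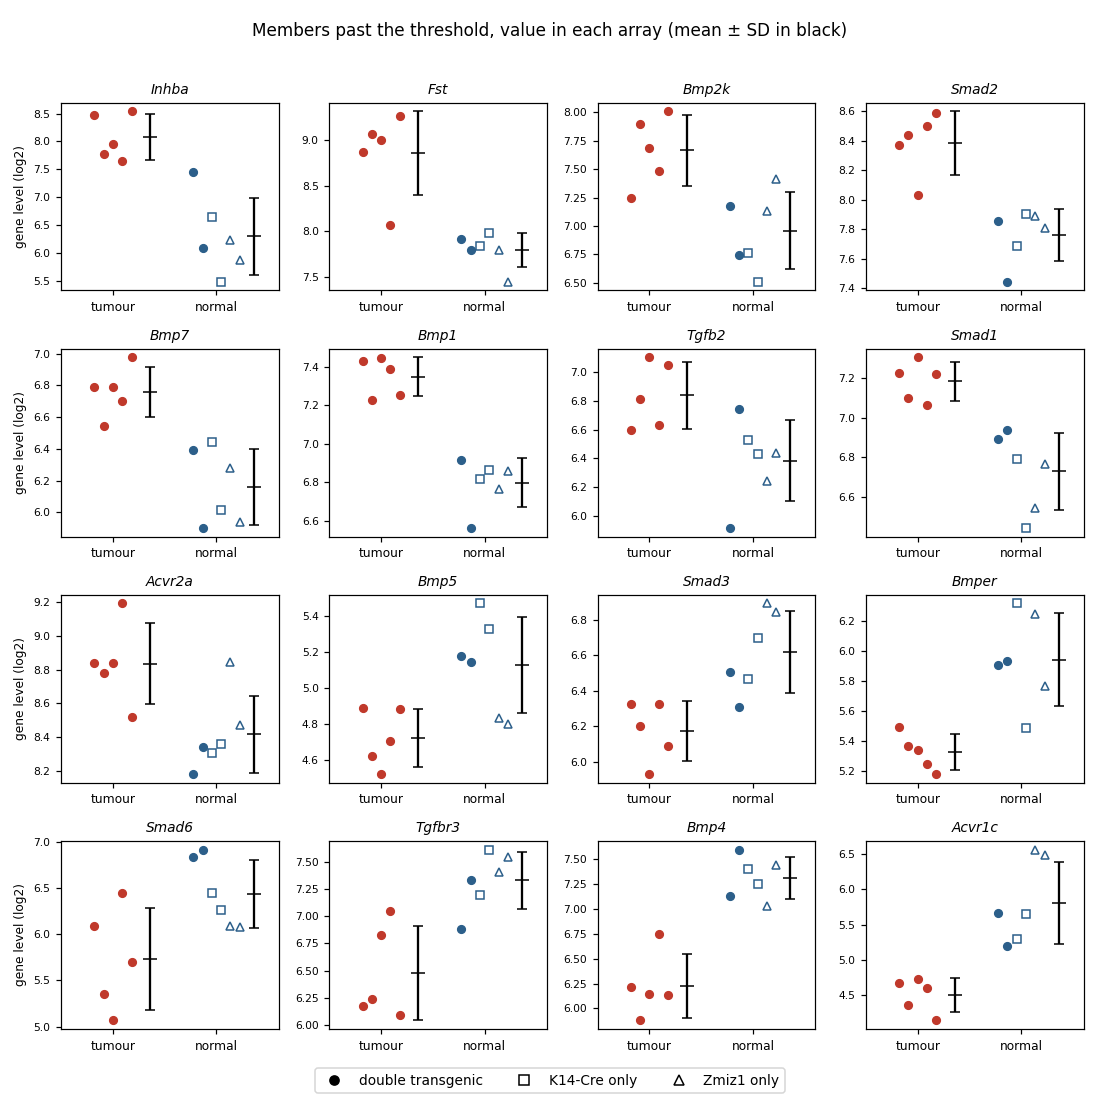
Log2 signal of the 16 called members in each of the 11 arrays, with the group mean and SD in black. Filled circles are double transgenic mice, open squares K14-Cre only and open triangles Zmiz1 only. Inhba, Fst, Bmp7, Bmp1, Smad1 and Smad2 are higher in every keratoacanthoma than in any normal skin, and Bmp4 and Acvr1c lower.

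Of the 13 receptors, Acvr1c and the co-receptor Tgfbr3 were lower and Acvr2a was higher. Acvr1c encodes ALK7, a type I receptor for activin B and some GDFs that is abundant in fat cells. It read 4.67, 4.36, 4.73, 4.60 and 4.14 in the tumours, and 5.19, 5.66 and 6.57 at the lowest, median and highest normal skin. The groups did not overlap, and the Zmiz1-only skins 5 (6.57) and 6 (6.48) were the highest. The means were 4.50 ± 0.25 (SD, n = 5) and 5.81 ± 0.59 (SD, n = 6), a difference of -1.31 (SE 0.25, 95% interval -1.84 to -0.78, limma adjusted p = 0.0018). Of 9 probesets 5 were lower, and differences ran from -2.58 to 0.36; the tumour mean was below the 25th percentile of signals. Without dim probesets the difference was -0.68 and still called (limma adjusted p = 0.016), so that the size of the fall, but not its direction, depended on them. The skins highest in Acvr1c also had the highest fat cell means, 8.89 and 9.07, and the part of fat tissue in the result was not tested.

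**Figure D3:**
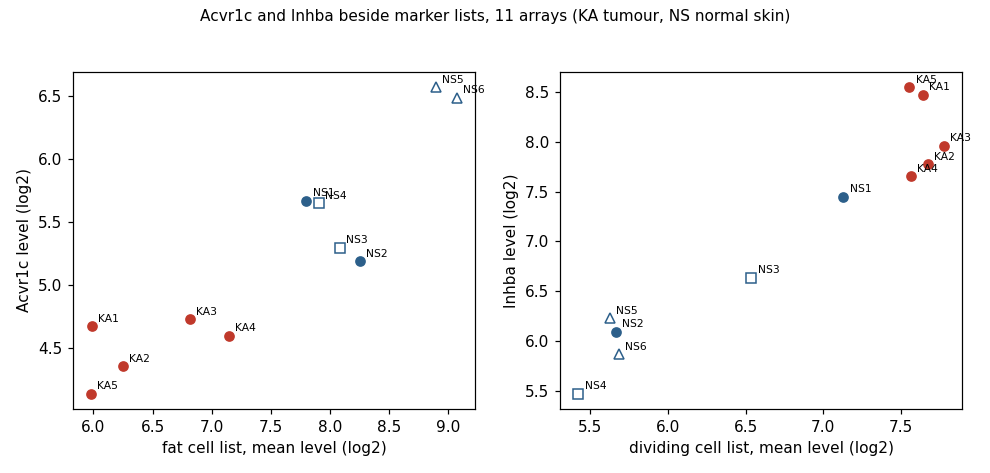
Left, Acvr1c against the mean of 8 fat cell markers, and right, Inhba against the mean of 9 dividing cell markers, all on the log2 scale, with 1 point per array labelled by tissue and number (KA, keratoacanthoma; NS, normal skin). Normal skins 5 and 6 are highest on both axes at left, and normal skins 1 and 3 are the skins nearest to the tumours on both axes at right.

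Tgfbr3 encodes betaglycan, a co-receptor that presents TGF-beta2 and lets inhibin block activin. It read 6.18, 6.24, 6.83, 7.05 and 6.09 in the tumours, and 6.88, 7.37 and 7.61 at the lowest, median and highest normal skin. Keratoacanthoma 4 alone entered the range of skin, above normal skin 1. The difference was -0.85 (SE 0.19, limma adjusted p = 0.0054) and 11 of 17 probesets were lower, more than for any other member. The call was lost in 1 of 23 alternative settings, with the double transgenic skins alone as reference in a fit of those 7 arrays (-0.63, adjusted p = 0.17). Without the 3 arrays high in hair keratins the difference was larger, at -1.14.

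Acvr2a, a type II receptor for activins and BMPs, read 8.84, 8.78, 8.84, 9.19 and 8.52 in the tumours and 8.18, 8.35 and 8.85 at the lowest, median and highest normal skin. The overlap came from normal skin 5. The difference of 0.42 (SE 0.14) was called at a limma adjusted p of 0.043, but none of its 13 probesets was called and 17 of 23 alternative settings lost the call. Leaving out any of keratoacanthomas 1 to 4 or of normal skins 1, 2, 3, 4 and 6 ended it (difference 0.33 to 0.43, limma adjusted p 0.059 to 0.11). The difference was smallest after quantile normalization (0.13, adjusted p = 0.57) and was 0.24 without the 3 arrays high in hair keratins.

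The 10 receptors not called differed by -0.17 (Acvr2b) to 0.35 (Bmpr1b), within 95% intervals that together spanned -0.49 to 0.71, and their smallest limma adjusted p was 0.15. The direction of Bmpr1b was uncertain: 8 of its 17 probesets lay below the 25th percentile of signals. Of the 17, 1 was higher and 2 lower, and their median difference was -0.14. Tgfbr1, the type I TGF-beta receptor, read 7.17, 7.17, 7.15, 6.75 and 7.27 in the tumours and 6.22, 6.99 and 7.18 at the lowest, median and highest normal skin (difference 0.23, adjusted p = 0.34). Tgfbr2, its type II partner, read 6.56, 6.68, 6.32, 6.56 and 6.76 against 6.52, 6.72 and 7.0 (difference -0.16, adjusted p = 0.33). Both receptors overlapped between tissues, and Tgfbr2 was called when the mean over probesets was used (-0.28, adjusted p = 0.020).

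Among the BMP and activin receptors, Bmpr1a, a type I receptor needed for hair follicle differentiation, read 7.84, 7.72, 7.85, 7.92 and 7.77 in the tumours and 7.30, 7.84 and 8.04 at the lowest, median and highest normal skin. The tumours lay inside the range of the skins, and the difference of 0.095 (adjusted p = 0.69, limma) turned to -0.091 after quantile normalization. Bmpr2, the type II BMP receptor, read 8.92, 9.18, 9.02, 9.19 and 9.10 against 8.66, 8.84 and 9.12 (difference 0.20, adjusted p = 0.20, limma; -0.099 after quantile normalization). Acvr1b, the type I activin receptor ALK4, read 6.17, 6.65, 6.75, 6.29 and 6.85 against 6.12, 6.25 and 6.82 (difference 0.22, adjusted p = 0.34). The endothelial receptors Acvrl1 and Eng differed by -0.08 and 0.14. Of the 15 Acvrl1 probesets 3 were lower and none higher, with a median difference of -0.43, while none of the 16 Eng probesets was called. The mean of 10 endothelial markers was 6.22 to 6.58 in the tumours and 6.22 to 6.46 in the skins. Of these markers 2 were higher and 2 lower, beside 14.5% and 10.8% of all genes.

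Of the 8 SMADs, Smad1 and Smad2 were higher and Smad3 and Smad6 lower. Smad2 and Smad3 are the mediators of TGF-beta and activin. Smad2 read 8.37, 8.44, 8.03, 8.50 and 8.59 in the tumours and 7.44, 7.83 and 7.90 at the lowest, median and highest normal skin, without overlap. The difference was 0.62 (SE 0.12, limma adjusted p = 0.0025), with means of 8.39 ± 0.22 (SD, n = 5) and 7.76 ± 0.18 (SD, n = 6). Of its 16 probesets 5 were higher, and their differences were uneven, from -0.59 to 1.95. After quantile normalization the difference was 0.39 and still called (limma adjusted p = 0.029).

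Smad3 read 6.33, 6.20, 5.93, 6.33 and 6.09 in the tumours and 6.31, 6.60 and 6.89 at the lowest, median and highest normal skin. Only normal skin 2 fell within the range of the tumours. The difference was -0.44 (SE 0.13, limma adjusted p = 0.022), and 6 of 23 alternative settings lost the call. Only 1 of its 13 probesets was lower, and their median difference was -0.096. As a mean over probesets the difference was -0.19 (limma adjusted p = 0.12), without dim probesets -0.31 (0.13), and against the double transgenic skins in a fit of 7 arrays -0.23 (0.33). Without keratoacanthoma 3 or without keratoacanthoma 5 the limma adjusted p was 0.055 to 0.063 (difference -0.42 to -0.38).

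In the BMP branch, Smad1 read 7.22, 7.10, 7.30, 7.06 and 7.22 in the tumours and 6.44, 6.78 and 6.94 at the lowest, median and highest normal skin. The groups did not overlap, the double transgenic skins 1 and 2 being the highest skins. The difference was 0.45 (SE 0.11, limma adjusted p = 0.0088), with means of 7.18 ± 0.10 (SD, n = 5) and 6.73 ± 0.20 (SD, n = 6). With these 2 skins alone as reference it was 0.27 and no longer called (adjusted p = 0.19 in a fit of 7 arrays). Only 1 of the 11 Smad1 probesets was called higher, and their median difference was 0.24. Smad5 and Smad9, the other mediators of BMP signals, differed by 0.17 and -0.14 and were not called. The median difference of the 13 Smad5 probesets, -0.16, had the other sign.

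Smad6, an inhibitory SMAD that acts mainly on BMP receptors, read 6.08, 5.36, 5.07, 6.44 and 5.70 in the tumours and 6.08, 6.36 and 6.92 at the lowest, median and highest normal skin. Keratoacanthoma 4 lay above the median skin and keratoacanthoma 1 at its lower edge. The difference of -0.71 (SE 0.24, limma adjusted p = 0.047) was lost in 12 of 23 alternative settings. It was -0.46 without dim probesets (adjusted p = 0.040), -0.49 against the single transgenic skins (0.19) and -1.15 against the double transgenic skins in a fit of 7 arrays (0.050, limma). Leaving out any of keratoacanthomas 2, 3 and 5 or of normal skins 1 to 4 ended the call (difference -0.74 to -0.54, limma adjusted p 0.061 to 0.12). Only 1 of the 7 Smad6 probesets was called lower, and their median difference was -0.36.

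Smad7, the inhibitory SMAD induced by TGF-beta itself, read 6.31, 5.64, 6.35, 6.28 and 6.36 in the tumours and 5.44, 5.90 and 6.25 at the lowest, median and highest normal skin. All tumours except keratoacanthoma 2 were above all skins. The difference of 0.32 was not called (limma adjusted p = 0.17) but was called without keratoacanthoma 2 (0.45, adjusted p = 0.036) and as a mean over probesets (0.36, adjusted p = 0.047). Smad4, the partner common to both branches, read 8.11, 7.98, 8.02, 8.02 and 7.97 against 7.88, 7.98 and 8.26, the tumours lying inside the range of the skins. Its difference was 0.00 (95% interval -0.20 to 0.20), with a sign that turned under several settings.

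**Figure D4:**
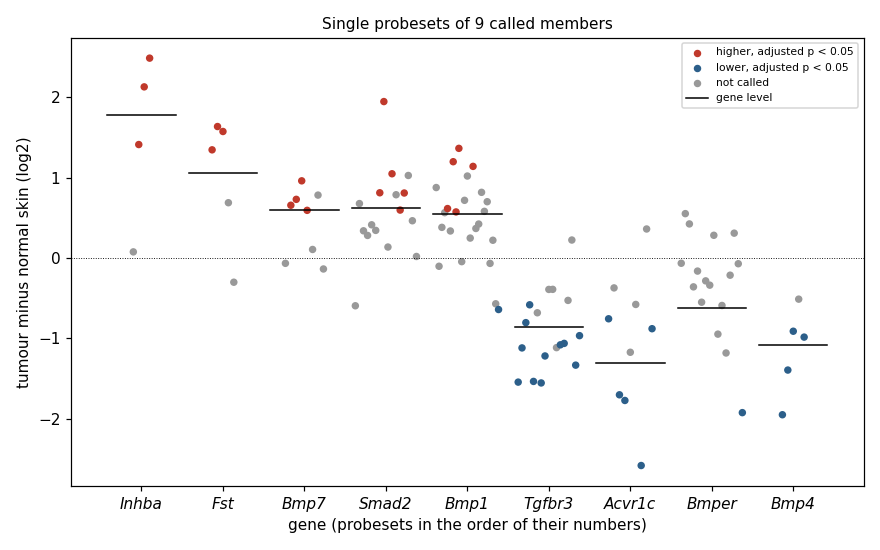
Keratoacanthoma minus normal skin difference on the log2 scale for each probeset of Inhba, Fst, Bmp7, Smad2, Bmp1, Tgfbr3, Acvr1c, Bmper and Bmp4, with called probesets marked. All 5 Bmp4 probesets lie below 0, whereas those of Smad2 run from -0.59 to 1.95.

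Among the 6 secreted inhibitors, Fst was higher and Bmper lower. Fst encodes follistatin, which binds activins and keeps them from their receptors. It read 8.87, 9.07, 9.0, 8.07 and 9.26 in the tumours, and 7.44, 7.82 and 7.98 at the lowest, median and highest normal skin. The groups did not overlap, but keratoacanthoma 4 lay close to the highest skin, normal skin 4. The means were 8.85 ± 0.46 (SD, n = 5) and 7.79 ± 0.19 (SD, n = 6), a difference of 1.06 (SE 0.19, limma adjusted p = 0.0011). It was 1.30 without the 3 arrays high in hair keratins. Of 5 probesets 3 were higher, and differences ran from -0.30 to 1.64. Inhba and Fst, an activin chain and the activin inhibitor, were thus both higher in all 5 tumours.

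Bmper, an extracellular protein that binds BMPs, read 5.49, 5.37, 5.34, 5.25 and 5.18 in the tumours and 5.49, 5.92 and 6.32 at the lowest, median and highest normal skin. The groups met at keratoacanthoma 1 and normal skin 4. The difference was -0.62 (SE 0.14, limma adjusted p = 0.0068), and only 1 of 16 probesets was called lower. Their differences ran from -1.92 to 0.55, with a median of -0.25. As a mean over probesets the difference was -0.32 (limma adjusted p = 0.021).

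The BMP antagonists Nog, Grem1 and Chrd were not called. Nog, read by 1 probeset, gave 5.54, 5.67, 5.29, 5.54 and 5.51 in the tumours and 5.45, 5.56 and 6.00 at the lowest, median and highest normal skin (difference -0.11, limma adjusted p = 0.51). Grem1 gave 7.28, 7.44, 7.27, 6.86 and 7.30 against 6.87, 7.17 and 7.32 (difference 0.09, adjusted p = 0.65; -0.064 without dim probesets and -0.025 after quantile normalization). In both, the tumours overlapped the skins. Chrd, which encodes chordin, and Fstl3, a relative of follistatin, each differed by -0.33 (limma adjusted p = 0.22 and 0.14).

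Of the 3 genes that share a symbol but not the ligand fold, 2 were higher. Bmp1 encodes a metalloprotease that trims procollagen and cleaves chordin. It read 7.43, 7.23, 7.44, 7.39 and 7.25 in the tumours and 6.56, 6.84 and 6.92 at the lowest, median and highest normal skin. The groups were well apart, with means of 7.35 ± 0.10 (SD, n = 5) and 6.80 ± 0.13 (SD, n = 6) and a difference of 0.55 (SE 0.10, limma adjusted p = 0.0010). Of its 23 probesets 5 were higher and 1 lower.

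Bmp2k encodes a kinase named for its induction by BMP2. It read 7.24, 7.90, 7.69, 7.49 and 8.01 in the tumours and 6.51, 6.95 and 7.42 at the lowest, median and highest normal skin. Keratoacanthoma 1 lay below normal skin 6, and the other tumours above all skins. The difference was 0.71 (SE 0.18, limma adjusted p = 0.011), lost in 1 of 23 settings, with the double transgenic skins alone as reference in a fit of 7 arrays (0.70, adjusted p = 0.069). Only 1 of its 10 probesets was called higher, with differences from 0.18 to 1.22. Tgfbrap1, which encodes a protein of endosome fusion, differed by 0.37 (adjusted p = 0.096, limma).

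Of the 16 calls, 8 held in all 23 alternative settings: Inhba, Fst, Bmp7, Smad2, Bmp1, Bmp4, Acvr1c and Bmper. Of these, the differences of Acvr1c, Bmper and Smad2 shrank by over 1.5 times in the settings given above. Keratoacanthoma 4, which had the highest hair keratin, muscle and fat cell means among the tumours, was the tumour nearest to normal skin in 6 of the 16 called members: Fst, Inhba, Bmp4, Tgfbr3, Smad6 and Smad1. Keratoacanthoma 1 was nearest in 5. The part of these tissues in the order of the tumours was not tested.

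Tested singly, 31 of the 516 member probesets were higher (6.01%) and 38 lower (7.36%), against 8.29% and 6.98% of all 211507 probesets. The higher count was 16 without keratoacanthoma 2 (5.52% of all probesets) and 14 without keratoacanthoma 5 (5.35%). The lower count was 20 without keratoacanthoma 5 (4.7%). Without the 3 arrays high in hair keratins the 2 counts were 22 and 27, against 6.58% and 6.06% of all probesets. Positions of probesets within their genes were not used here.

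The second comparison asked whether members differed between keratoacanthoma and normal skin of the same genotype, skins 1 and 2. In a model of 4 groups, 11 of 57 members were called (19.3%), 7 higher and 4 lower, against 17.6% of all genes (10.6% higher and 6.93% lower). This comparison shares its 5 tumours and 2 skins with the first, and all 11 were called there too. Bmp4 differed by -1.14 (adjusted p = 0.0073), Acvr1c by -0.93 (0.0098), Bmp1 by 0.61 (0.012) and Smad2 by 0.74 (0.016), by limma with Benjamini-Hochberg adjustment. Smad6 differed by -1.15 (0.025), Fst by 1.00 (0.026), Inhba by 1.31 (0.045), Bmp7 by 0.61 (0.045), Bmp2k by 0.70 (0.046), Acvr2a by 0.58 (0.046) and Bmp5 by -0.44 (0.048).

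In that model, the 5 members called against all skins only were Tgfb2 (0.51, adjusted p = 0.14), Smad1 (0.27, 0.21), Smad3 (-0.23, 0.30), Bmper (-0.59, 0.076) and Tgfbr3 (-0.63, 0.13, limma). All 5 had the same sign as against all skins. In a fit of the tumours and skins 1 and 2 alone, Bmper kept its call. With 2 skins the calls depended on single arrays. Without normal skin 2, normal skin 1 was the only double transgenic skin. The differences of Inhba (0.63), Bmp2k (0.49) and Bmp7 (0.36) were then smaller, and that of Acvr2a was larger. The 7 higher members became 4 without keratoacanthoma 1 (beside 9.94% of all genes), 3 without keratoacanthoma 2 (8.18%) and 2 without keratoacanthoma 3 (8.53%). Without keratoacanthoma 4 or without keratoacanthoma 5 they became 4 (9.93% and 8.29%). They became 3 without normal skin 5 or without normal skin 6 (9.57% of all genes in each). Each of the 11 calls was lost in at least 1 alternative setting, from 1 of 19 for Bmp4 to 17 of 18 for Bmp5. Acvr2a lost its call in 13 of 19, Bmp2k in 12, and Inhba and Bmp7 in 9 each. Quantile normalization gave 2 higher and 3 lower members (7.74% and 6.24% of all genes).

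**Figure D5:**
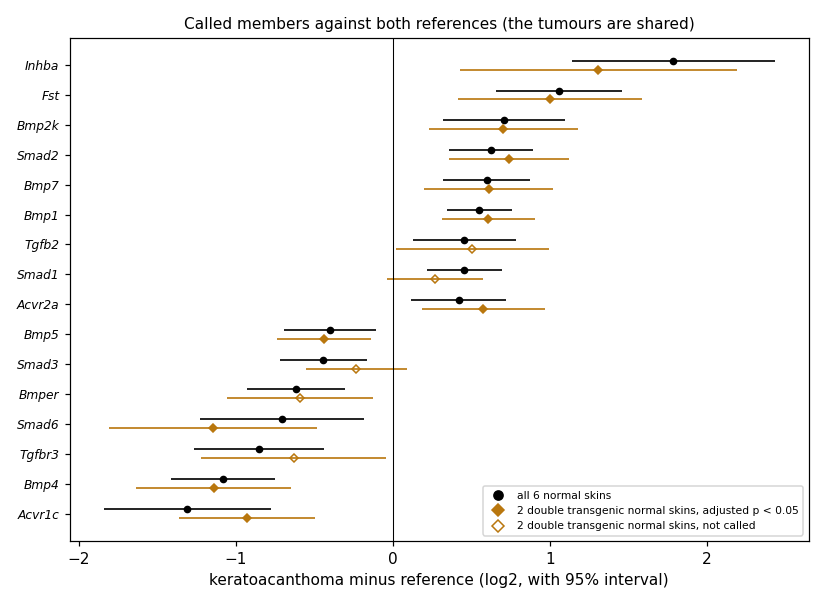
Difference on the log2 scale for the 16 called members with all 6 normal skins as reference and with the 2 double transgenic skins as reference, with 95% intervals; filled diamonds are called at a limma adjusted p below 0.05. Every member keeps its sign, and 5 are not called against the 2 skins in the model of 4 groups.

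Whether normal skin carrying both transgenes differed from skin carrying 1 of them was tested on 2 against 4 skins. None of the 57 members was called by limma, against 0.0147% of all genes. The differences ran from -0.57 (Acvr1c) to 0.72 (Inhba), with a smallest adjusted p of 0.42 and 95% bounds from -1.02 to 1.63, so that changes of 2-fold were within the intervals of some members. Acvr1c (95% interval -1.02 to -0.12) was the only member at an unadjusted p below 0.05, and for it the K14-Cre-only skins (5.30 and 5.65) lay near the double transgenic skins (5.67 and 5.19), below the Zmiz1-only skins. No other tool was run on this comparison.

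The wider pathway was read from 6 lists of genes outside the family rule. Of 13 genes of TGF-beta latency and activation, 3 were higher and 1 lower (median 0.01), counts near those that the 14.5% higher and 10.8% lower of all genes would give. Thbs1, whose product thrombospondin 1 can release active TGF-beta, read 8.74, 8.70, 8.91, 8.68 and 8.39 in the tumours and 6.47, 6.97 and 7.84 at the lowest, median and highest normal skin, without overlap. It was higher by 1.65 (SE 0.21, limma adjusted p = 0.00011). Furin, a protease that cuts the ligand precursors, was higher by 0.51 (adjusted p = 0.0018), and the integrin subunit Itgav by 0.49 (0.012, limma). The latent TGF-beta binding protein Ltbp4 was lower (-0.52, adjusted p = 0.0078), a call absent with the double transgenic skins as reference.

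The list with most calls was the intracellular modulators, with 9 of 19 higher, 1 lower and a median of 0.33, beside 14.5% higher and 10.8% lower over all genes. Skil, a SMAD corepressor that TGF-beta induces, read 7.44, 7.76, 7.94, 7.54 and 7.89 in the tumours and 5.84, 6.14 and 6.68 at the lowest, median and highest normal skin. All tumours were above all skins, with a difference of 1.53 (SE 0.17, limma adjusted p = 4.8e-05). Pmepa1, which encodes a TGF-beta-induced membrane inhibitor of SMAD activation, was higher by 0.79 (adjusted p = 0.00041). Strap, a receptor-binding partner of SMAD7, was higher by 0.90 (0.0013), and the SMAD corepressor Tgif1 by 0.90 (0.0014, limma). The higher calls were 8 without the 3 arrays high in hair keratins (13% of all genes). Against the double transgenic skins, they were 7 in the model of 4 groups (10.6% of all genes) and 5 in a fit of those 7 arrays alone (9.54%). Tab1, an adaptor of the kinase TAK1, was the lower one (-0.34, adjusted p = 0.048). It was not called without any of keratoacanthomas 2, 3 and 5 or of normal skins 2, 4, 5 and 6, each of which left a lower count of 0. In these fits 7.92% to 10.1% of all genes were lower.

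Transcripts known to be induced by either branch were called in both directions, beside 14.5% of all genes higher and 10.8% lower. Of 12 induced by TGF-beta or activin, 3 were higher and 1 lower (median 0.11): the matrix protein gene Ccn1 (1.13, adjusted p = 0.00019), the cyclin-dependent kinase inhibitor Cdkn1a (0.82, 0.013), the fibronectin receptor subunit Itga5 (0.57, 0.014) and, lower, Tgfbi (-0.65, 0.020, limma). As a mean over probesets 6 were higher (18% of all genes). Without keratoacanthoma 1 none was lower (9.26% of all genes), while without normal skin 1 there were 2 (10.8%). Of 10 induced by BMP, 2 were higher and 2 lower (median -0.27). Id1 (0.65, adjusted p = 0.0072) and Dlx5 (0.54, 0.0027) were higher and Id2 (-0.57, 0.0099) and Id4 (-0.51, 0.014, limma) lower, although the Id genes are all known as BMP targets. Against the double transgenic skins, 1 of the 10 was higher and none lower in the model of 4 groups (10.6% and 6.93% of all genes). In a fit of those 7 arrays alone none was higher and 1 lower (9.54% and 6.11%).

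Of 21 further secreted antagonists and co-receptors, 4 were lower and 1 higher (median -0.15), beside 10.8% and 14.5% of all genes. Hjv, a BMP co-receptor known from muscle and liver, read 5.91, 5.83, 5.38, 5.46 and 4.87 in the tumours and 6.79, 7.15 and 8.28 at the lowest, median and highest normal skin. The groups did not overlap (difference -1.85, SE 0.25, limma adjusted p = 0.00020). The chordin relatives Chrdl1 (-1.74, adjusted p = 0.00032) and Chrdl2 (-0.49, 0.0043) and the antagonist Nbl1 (-0.60, 0.0060, limma) were also lower. Sostdc1, an antagonist of BMP and WNT in hair follicles, was higher (0.51, adjusted p = 0.032). The higher count was 0 without keratoacanthoma 1, 2 or 3 or normal skin 3 (12% to 13.7% of all genes), and 2 without normal skin 5 (14.1%).

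Of 5 further ligands, 2 were lower and none higher (median -0.18), beside 10.8% and 14.5% of all genes. Mstn, which encodes myostatin, the muscle ligand of the family, read 4.11, 4.27, 4.39, 4.38 and 4.87 in the tumours and 7.32, 9.35 and 9.94 at the lowest, median and highest normal skin. The groups lay far apart, with a difference of -4.52 (SE 0.43, limma adjusted p = 1.4e-05). The 12 skeletal muscle markers were lower in the tumours (median difference -4.52), and the part of muscle in the values of Mstn and Hjv was not tested. Lefty1, an inhibitor of Nodal signals, was lower (-0.62, adjusted p = 0.0068, limma).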

How the data were processed

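Total RNA from 11 snap-frozen mouse tissues was amplified and hybridised as labelled cDNA, 1 array each, per the labels' protocols. The authors deposited log2 values of 241576 probesets. RMA, Partek and build mm9 are named in the submitters' processing notes, with versions and settings not given in the sources used here. The deposited normalization was kept: array medians lay between 6.22 and 6.27, and single values between 0.994 and 15.2. The number of arrays limits the precision.

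Of the probesets, 212097 named 1 gene, 4475 several and 25004 none; those naming 1 gene were used, less 590 that repeated the values of a probeset of their gene. Symbols were updated through RefSeq (2742 of 20416). Gdf1, whose probesets also name Lass1, is not reported here, and 3 probesets shared by Fstl3, 1 by Fst and 2 by Tgfbr2 were left out.

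limma 3.58.1 (R 4.3.3, lmFit and eBayes) was fitted to all genes, as 2 groups for keratoacanthoma against normal skin and as 4 groups by genotype for the other comparisons, and to all probesets. Values in every array are given for called members whose groups do not overlap and for 20 members named by symbol; of each pathway list up to 4 genes per direction with the smallest adjusted p are named. The values of other members were chosen after they were seen. The members, gene lists, tests and alternatives were chosen with earlier results of these data known. The code was tested on simulated data.

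The alternatives were the mean over probesets, leaving out probesets or genes that were dim (under the 25th percentile of signals), arrays centred or quantile normalized, array weights, a robust eBayes fit with trend, the sample number as a block, double or single transgenic skin as the only reference, a hair keratin covariate, and each array left out. A fit without the 3 arrays high in hair keratins was chosen after seeing the data. Tables were made in Python 3.11.15 (numpy 2.4.6, pandas 2.3.3) and figures with matplotlib 3.10.9.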

Additional observations from a re-analysis of the deposited data

Results flagged for a closer look

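Single arrays stood apart from the rest of their group in 14 of 136 groups of values tested, and in 12 of the 114 groups formed by the 57 members; chance gives about 1 in 20. A group was listed where the gap between the highest or lowest array and its neighbour, divided by the group's range, passed the Dixon critical value at the 95% level.

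Among called members this concerned Fst alone, whose normal skin 6 read 7.44 with the next skin at 7.79. In the keratoacanthomas, Smad7 was low in keratoacanthoma 2 (5.64, next 6.28), Tgfbr1 in keratoacanthoma 4 (6.75, next 7.15) and Bmp3 in keratoacanthoma 3 (5.06, next 5.69), and Bmpr1b was high in keratoacanthoma 3 (5.91, next 5.41). Normal skin 2 was high in Bmp6 (6.78, next 6.52) and Gdf5 (5.43, next 5.02) and low in Bmp8a (6.00, next 6.33). Acvr1b was high in normal skin 1 (6.82, next 6.31), Inha in normal skin 4 (6.07, next 5.96), and Nog and Bmp10 in normal skin 3 (6.00, next 5.62, and 4.48, next 4.05). Of the marker lists, the hair keratin mean was high in keratoacanthoma 4 (8.76, next 6.26) and the macrophage mean low in keratoacanthoma 1 (6.21, next 6.82).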

How the results depend on the processing

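Against all normal skins, the 9 higher and 7 lower members became 5 and 3 with the double transgenic skins as the only reference. The shares of all genes were then 9.54% and 6.11%, against 14.5% and 10.8% in the main fit. Leaving out single arrays gave 7 to 8 higher and 4 to 7 lower (11.8% to 14.5% and 7.92% to 10.8% of all genes). The mean over probesets gave 12 higher and 10 lower (18% and 15.8% of all genes). It kept all 9 higher calls but only 5 of the 7 lower. The sample numbers do not pair the tissues (correlations of same-numbered pairs -0.18 to 0.10, and 1 of 5 tumours closest to its own number). The replicate block gave 7 higher and 4 lower members (12.8% and 8.43% of all genes). It gave 21 higher and 22 lower probesets (5.58% and 4.35% of all probesets). Against skin of the same genotype, the 7 higher members became 2 with quantile normalization (7.74% of all genes) and 0 with array weights (4.63%). The 4 lower became 7 with the mean over probesets (11.3% of all genes), 2 without dim probesets (8.72%) and 2 with array weights (2.42%). Leaving out single keratoacanthomas gave 2 to 4 higher (8.18% to 9.94% of all genes) and 3 to 5 lower (4.83% to 6.41%). Left-out arrays gave 14 to 32 higher and 20 to 36 lower probesets (5.35% to 8.27% and 4.7% to 6.84% of all probesets). No member was called between normal skins under any alternative run.

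Signs turned in members that were not called: with quantile normalization in Bmpr1a (-0.091), Bmpr2 (-0.099), Grem1 (-0.025) and Smad4 (-0.22). Smad4, at 0.00, was also negative with array weights (-0.023), the single transgenic skins as reference (-0.053), the hair keratin covariate (-0.013) and without the 3 arrays high in hair keratins (-0.044). Leaving out single arrays gave Smad4 differences of -0.028 (without normal skin 1) to 0.048 (without normal skin 6), negative also without keratoacanthoma 1 or 3 or normal skin 2, 3 or 4. Grem1 without dim probesets gave -0.064, Tgfb1 against double transgenic skin -0.21, and Tgfb3 -0.038 as a mean over probesets and -0.058 without the 3 arrays high in hair keratins; its single-array range was -0.035 (without keratoacanthoma 3) to 0.16 (without normal skin 6). Over the named members, 729 values kept direction and call, 144 lost the call, 5 gained it and 19 turned sign. The causes were not tested.

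Limits: members below the 25th percentile of signals in both groups (Inhbe, Bmp10, Bmp15, Gdf9) may hide changes, 41 uncalled members had 95% intervals of a median half-width of 0.30, and genotype was tested on 2 against 4 skins.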
